A study of Mus musculus with 2 samples.

Results

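Natural killer (NK) cells were sought among retinoid-containing cells of the mouse lung, and members were chosen by the transcripts counted in each cell. A cell was a member when unique molecular identifiers (UMIs) of *Nkg7*, *Gzma*, *Klre1*, *Klrd1* and *Ncr1* summed to 5 or more. A member also held no UMI of *Cd3e*, *Cd3d* or *Cd3g*, fewer than 20 UMIs of *S100a8* and *S100a9*, and no UMI of *Cd79a*, *Cdh5* or *Epcam*. The rule found 55 members among 19622 cells that had at least 200 genes and at most 10% mitochondrial UMIs. Of these, 12 came from 9634 cells of library 1 and 43 from 9988 cells of library 2. Members in which 6 stromal genes (*Col1a1*, *Col1a2*, *Col3a1*, *Mfap4*, *Dcn* and *Pdgfra*) made up 0.1% of UMIs or more were kept apart, and they numbered 24.

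The study took lungs from untreated male mice, wild type and of strain C57BL/6, at an age of 3 months, and sorted live single cells by the blue fluorescence of their retinoid at 455 nm (UV-positive cells). The 2 libraries were 3' single-cell libraries of the same condition, from experiments done on separate occasions. The number of mice behind each is not given in the sources used here. With 1 condition, comparisons were made between cell types within the same libraries. Any p-value of the main fit rests on the spread left between sums of cell groups once the difference between the 2 libraries is removed as a block. That spread is estimated over all groups together and may be technical. Library 1 held 48762735 UMIs with a median of 4480 per kept cell, and library 2 held 93970185 UMIs with a median of 7577.5. Both libraries contained 23 cell barcodes in common, and 0 of these were members.

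NK cells are innate lymphocytes that kill stressed, infected or transformed cells without a rearranged antigen receptor. They carry granules of perforin and granzymes, read class I major histocompatibility complex (MHC) molecules through inhibitory and activating receptors of the Ly49, NKG2 and NKR-P1 families, and pass activating signals through small adaptor proteins. In the mouse lung they are a regular part of the resident and circulating lymphocyte pool, and they are an early source of interferon gamma and chemokines.

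The promoters of 4 genes are shown because 2 of them belong to the rule (*Gzma* and *Ncr1*) and the other two (*Gzmb* and *Prf1*) encode the killing machinery described further on. Each run is the 250 bases before the RefSeq start of the gene in build GRCm38.p6, written 5' to 3' on the strand of the gene. The windows lie at chr13:113100982-113101231 on the minus strand for *Gzma*, chr7:4337465-4337714 on the plus strand for *Ncr1*, chr14:56262335-56262584 on the minus strand for *Gzmb*, and chr10:61297586-61297835 on the plus strand for *Prf1*. Capitals mark TGTGGT, the core letters that Runx transcription factors recognise, or ACCACA, the same letters on the other strand.
Gzma: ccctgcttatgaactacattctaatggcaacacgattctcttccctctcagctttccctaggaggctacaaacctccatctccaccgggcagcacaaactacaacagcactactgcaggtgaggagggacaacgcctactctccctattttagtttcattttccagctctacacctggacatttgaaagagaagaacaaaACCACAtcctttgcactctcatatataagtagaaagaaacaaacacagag
Ncr1: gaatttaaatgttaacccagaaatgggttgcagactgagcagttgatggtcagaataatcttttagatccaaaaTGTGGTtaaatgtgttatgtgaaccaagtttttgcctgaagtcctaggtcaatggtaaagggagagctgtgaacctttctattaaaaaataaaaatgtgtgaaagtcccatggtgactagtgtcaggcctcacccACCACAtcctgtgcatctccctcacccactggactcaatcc
Gzmb: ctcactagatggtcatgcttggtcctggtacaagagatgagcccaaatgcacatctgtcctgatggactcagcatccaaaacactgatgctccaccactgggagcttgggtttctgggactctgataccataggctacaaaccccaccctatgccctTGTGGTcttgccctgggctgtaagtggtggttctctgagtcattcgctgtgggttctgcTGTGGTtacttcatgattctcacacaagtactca
Prf1: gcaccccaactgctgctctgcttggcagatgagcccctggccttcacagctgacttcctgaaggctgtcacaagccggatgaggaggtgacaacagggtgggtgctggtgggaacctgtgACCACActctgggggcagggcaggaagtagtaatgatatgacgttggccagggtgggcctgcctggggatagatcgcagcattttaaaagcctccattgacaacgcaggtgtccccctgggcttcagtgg
*Gzma* and *Prf1* held 1 match each, beginning 50 and 130 bases before the start. *Gzmb* held 2 matches, at 93 and 34 bases, and *Ncr1* held 2, at 176 and 41 bases. Of 32851 promoters of the same length, 4614 (14.045%) held at least 1 match, so these letters are common, and a match is a description of the window only. The other rule genes, *Nkg7*, *Klre1* and *Klrd1*, are not shown, so the 4 picked windows cannot be set against this share.

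Members made up 0.125% of library 1 (95% exact Clopper-Pearson interval 0.0644 to 0.217) and 0.431% of library 2 (0.312 to 0.579). Over both libraries the share was 0.280% (0.211 to 0.365), and these intervals cover counting error only. The share was higher in the more deeply sequenced library. The part of depth in this difference was not tested beyond a thinning to 2000 UMIs per cell, which gave a pooled share of 0.148%. Cells lay on both sides of the threshold, with 13 cells at a sum of 3 UMIs and 9 at 4 UMIs just outside it, and 9 at 5 UMIs, 6 at 6, 3 at 7 and 2 at 8 just inside, and the pooled share was 0.392% at a sum of 3 and 0.178% at a sum of 10. No cell with a sum of 5 to 8 UMIs held *Gzma*.

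The exclusion genes removed more cells than the rule kept in library 2. Of 130 cells there with 5 or more UMIs of the NK genes, 34 were removed for a *Cd3* UMI, 2 of the rest for *Cd79a*, and 51 of those then left for *Cdh5* or *Epcam*. Of those 34 *Cd3* cells, 33 held *Nkg7*, 18 held *Cd8a* and 28 held *Ccl5*, so T cells with cytotoxic transcripts were among those set aside. Of the 51 cells removed for *Cdh5* (endothelial cadherin) or *Epcam* (an epithelial adhesion molecule), 46 held *Klrd1* but only 10 held *Gzma*, and 47 held *Cd74*. Their median of 20630 UMIs per cell was far above that of the library.

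The 55 members were of 2 kinds, and they separated on *Gzma*, which encodes granzyme A. At least 1 *Gzma* UMI was found in 31 members (5 in library 1 and 26 in library 2), and 24 members (7 and 17) had none. This division was made after the values were seen and is given as a description with no test. Among the 31 *Gzma*-positive members, 18 held UMIs of all 5 rule genes, 8 of 4 and 5 of 3. Among the 24 *Gzma*-negative members, 21 held only 1 of the 5 rule genes, 2 held 2 and 1 held 3. All 24 held *Klrd1*, the CD94 subunit of NKG2 receptors, at 2 to 18 UMIs with a median of 6, and *Nkg7*, a granule protein of cytotoxic lymphocytes, was seen in 1 of them at 3 UMIs.

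*Cd74*, the invariant chain that chaperones MHC class II, divided the members along the same line. The *Gzma*-positive members held 0 or 1 *Cd74* UMI per cell. The *Gzma*-negative members held between 134 and 588, with a median of 320.5, and the ranges did not overlap. Class II genes followed, since *H2-Ab1*, *H2-Aa* and *H2-Eb1* had 0 UMIs in *Gzma*-positive members of low stromal content and 2617, 2409 and 2471 UMIs in *Gzma*-negative members. The plot of *Gzma* against *Cd74* in each member shows the 2 kinds as separate clouds.

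**Figure D1:**
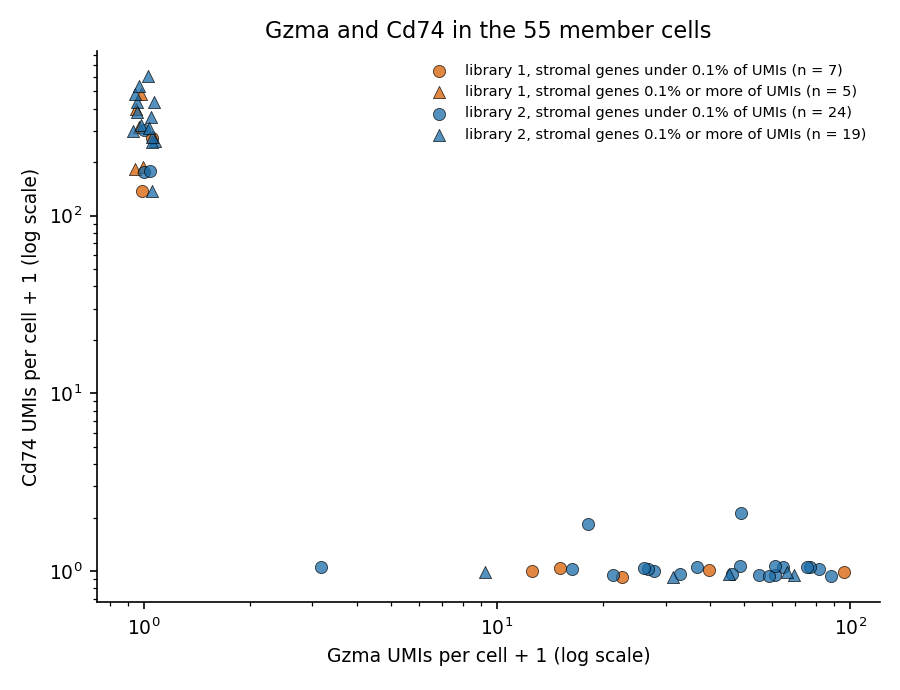
*Gzma* UMIs plus 1 (x axis, log scale) against *Cd74* UMIs plus 1 (y axis, log scale) in each of the 55 members, with colour for the library and a separate symbol for members with stromal genes at 0.1% of UMIs or more. The 31 members with *Gzma* lie along the bottom at 0 or 1 *Cd74* UMI, and the 24 without *Gzma* lie at the left, between 134 and 588 *Cd74* UMIs.

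The name NK cell was then checked against markers that the rule did not use. Among 26 *Gzma*-positive members of low stromal content (5 in library 1 and 21 in library 2, 83770 UMIs in all), 18 of 18 such NK markers had UMIs, 3347 UMIs in total. Their summed level was 38718 in library 1 and 40071 in library 2, in counts per 1000000 UMIs (CPM), and pairs of levels hereafter are given in that order. Of the 3347 UMIs, 2137 were *Ccl5*, which 28 of the 34 cells removed for a *Cd3* UMI in library 2 also held. In the *Gzma*-negative members the same list stood at 2845 and 1795 CPM, and of its 867 UMIs 386 were *Tyrobp* and 387 *Fcer1g*, adaptor genes that myeloid cells also express. The NK label held for the *Gzma*-positive members and did not hold for the *Gzma*-negative ones, which are called by their rule and by their leading genes here.

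The *Gzma*-negative members were led by antigen presentation genes of mononuclear phagocytes. Of 12 mononuclear phagocyte markers, 11 had UMIs in these cells, at a summed 26868 and 18972 CPM. The *Gzma*-positive members of low stromal content held 2 of 12 markers and 19 UMIs. Of the 8888 UMIs in the *Gzma*-negative members, 5751 were *Cst3* and 2617 *H2-Ab1*, so 2 genes carried most of the sum. Stromal cells held the same list at 7199 and 6335 CPM. *Cst3*, which encodes the protease inhibitor cystatin C, had 5751 UMIs, *Il1b*, which encodes interleukin 1 beta, had 363, and *Mgl2* and *Cd209a*, C-type lectins of dendritic cells and macrophages, had 278 and 150. *Mki67* and *Top2a*, genes of dividing cells, had 66 and 67 UMIs that came from 5 to 6 cells. Stromal markers outside the rule summed to 6655 UMIs in all *Gzma*-negative members, at 10837 and 16524 CPM. The *Gzma*-positive members of low stromal content held 28 UMIs, a low count that the stromal limit itself favours. The 5 *Gzma*-positive members at or above that limit, all in library 2, held 1027 UMIs, at 27255 CPM. One *Gzma*-negative cell of library 2, with 21028 UMIs, held 3 UMIs of *Nkg7*, 1 of *Ncr1*, 21 of *Ccl5* and 5 of *Il2rb* beside its class II transcripts.

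The 2 kinds also differed in RNA content per cell. *Gzma*-positive members of low stromal content had medians of 1566 UMIs in library 1 (776 to 1825) and 3802 UMIs in library 2 (734 to 8326). *Gzma*-negative members had medians of 13415 UMIs (5611 to 15669) and 20785 UMIs (8271 to 33237). In library 1 the ranges did not overlap, and in library 2 they met only at the edge. The stromal limit was applied here to the *Gzma*-positive side only. Under that limit, pooled medians were 3255 UMIs in *Gzma*-positive and 8830 in the 5 *Gzma*-negative members. At or above it they were 8299 and 19101 UMIs, so the gap between kinds was smaller than that between the unmatched sets. No doublet caller was run, and whether barcodes with more UMIs captured more than 1 cell was not tested.

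Few UMIs of markers of other cell types were found in the 26 *Gzma*-positive members of low stromal content, T cell markers apart. Of 14 T cell markers outside the rule, 6 had UMIs, 56 in all, at a summed 1110 and 627 CPM against 4406 and 3880 CPM in T cells. *Trbc1* had 21 UMIs in 14 cells, at 833 and 196 CPM against 839 and 589 CPM in T cells. *Trbc1* and *Trbc2*, the latter with 20 UMIs in 7 cells, made up most of the 56. These genes encode constant regions of the T cell receptor beta chain, and NK cells are known to carry some transcripts of them. *Trac*, *Cd4*, *Cd8a* and *Cd8b1* had 0 UMIs. Markers of group 1 innate lymphoid cells had 3 UMIs, with *Cxcr6* at 0 and *Il7r* at 1, those of group 2 had 2, neutrophil markers 2, endothelial markers 5, B cell markers 8, and mast cell, platelet and red cell markers 0. Epithelial markers had 16 UMIs, of which 12 were *Sftpc*, the surfactant protein C gene.

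The stromal transcripts lay mainly in the *Gzma*-negative members. Of 24 members at 0.1% or more, 19 were *Gzma*-negative and 5, all from library 2, were *Gzma*-positive. Those 5 cells held *Gzma* at 5732 CPM, *Ccl5* at 8439 CPM and *Klrb1c* at 451 CPM, together with *Mfap4* at 1805 CPM, *Mgp* at 10669 CPM and *Inmt* at 6077 CPM. NK and fibroblast transcripts were thus counted under the same barcodes, at a median of 8299 UMIs per cell. The levels of the NK genes that follow are for the 26 *Gzma*-positive members of low stromal content unless another group is named.

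*Gzma*, a serine protease of cytotoxic granules and a rule gene, was at 24840 and 12395 CPM. *Gzma* lies on chromosome 13 at 113093825 to 113100981 (GRCm38, minus strand). *Ccl5*, a chemokine that draws T cells and monocytes and was not in the rule, was at 14571 and 26540 CPM and was found in 26 of 26 cells. In T cells of the same libraries (9 and 45 cells with at least 2 *Cd3* UMIs and an NK sum under 5), *Ccl5* was at 385 and 648 CPM, and in 95 B cells it had 0 UMIs, which places the *Gzma*-positive members at least 2490-fold higher than B cells. Such folds against a group without a UMI are taken from counts pooled over both libraries, against 3 UMIs over that group.

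Perforin and granzyme B were found in most *Gzma*-positive members. *Prf1*, which encodes the pore-forming perforin, was at 1527 and 888 CPM, with a UMI in 24 of 26 cells, and T cells were at 0 and 19.6 CPM. *Gzmb*, which encodes the apoptosis-inducing granzyme B, was at 5967 and 679 CPM with a UMI in 21 of 26 cells, and T cells held 1 UMI in all. The ratio of pooled levels to T cells was 263 for *Gzmb* (95% counting interval 46.1 to 10510) and 54.8 for *Prf1* (20.6 to 206). *Gzma*-negative members had 0 UMIs of both genes, so that the *Gzma*-positive members were at least 163-fold higher for *Gzmb* and at least 136-fold higher for *Prf1*. Because the rule set aside *Cd3* cells with NK transcripts, these T cells hold few cytotoxic cells.

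Proteins that protect or equip the granule were present too. *Serpinb9*, the inhibitor of granzyme B, was at 694 and 653 CPM against 0 and 14.7 CPM in T cells, a ratio of 50.8 (16.5 to 254). *Ctsw*, a cysteine protease of killer lymphocytes, was at 1804 and 601 CPM, against 105 and 73.7 CPM in T cells. *Cma1*, a chymase gene also transcribed in mature mouse NK cells, was at 278 and 222 CPM, at least 17.6-fold higher than in T cells. *Gzmk* and *Gzmm*, further granzymes, had 0 UMIs at this depth, where 3 UMIs over the 26 cells correspond to 35.8 CPM.

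**Figure D2:**
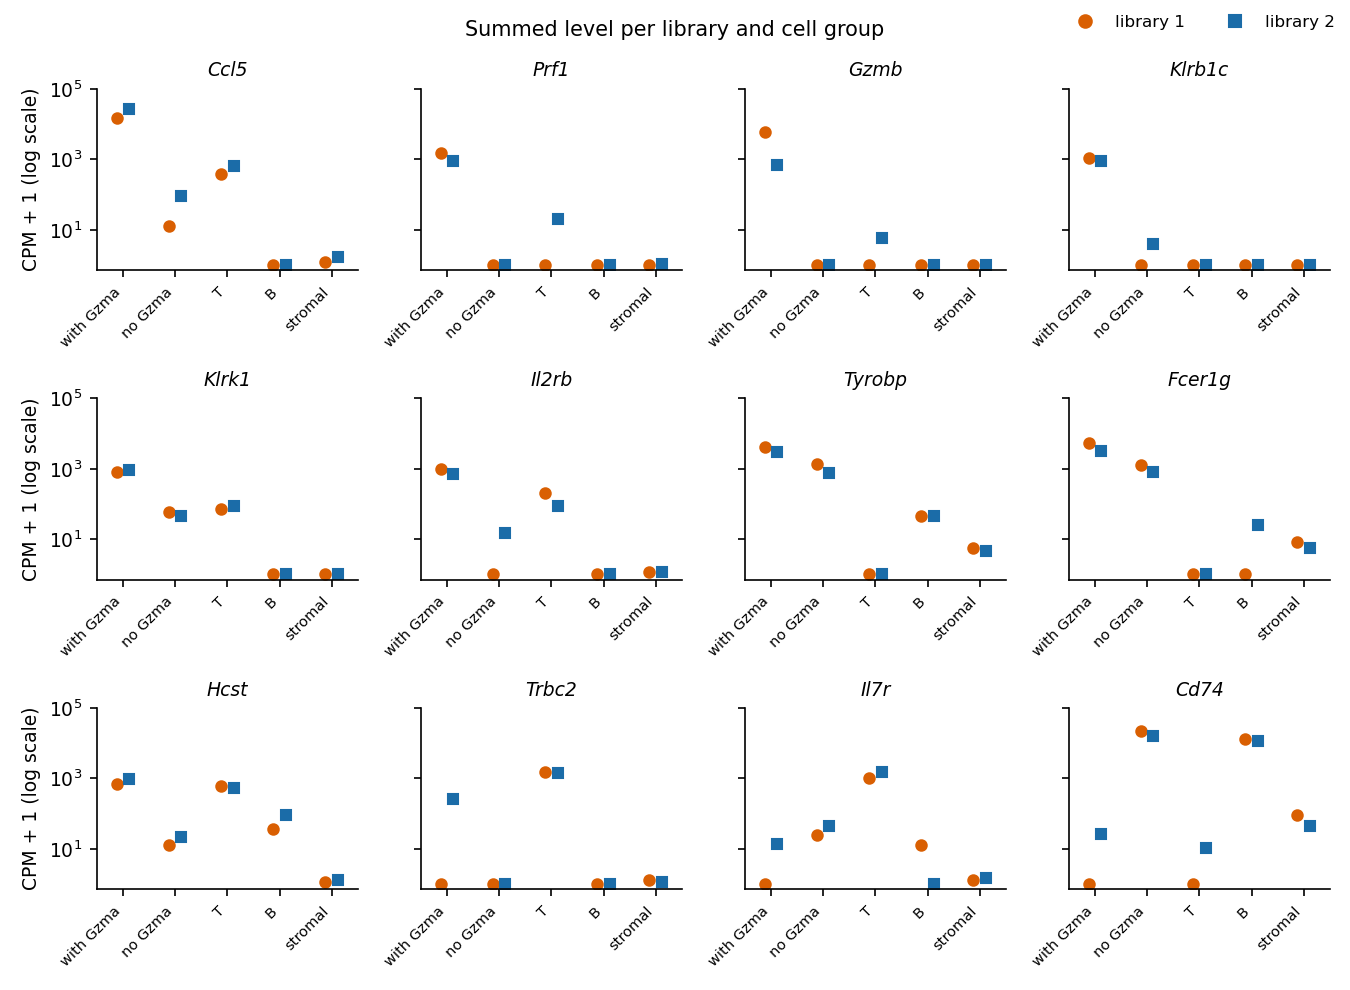
Summed level in CPM plus 1 (log scale) of selected genes, in panels by gene, for *Gzma*-positive members of low stromal content, *Gzma*-negative members, T cells, B cells and stromal cells, with a circle for library 1 and a square for library 2. *Ccl5* stood at 14571 and 26540 CPM in the *Gzma*-positive members and at 385 and 648 CPM in T cells.

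The effector genes varied between cells and between the libraries. *Gzmb* per 10000 UMIs of a cell ran from 38.4 to 129 with a median of 60.8 in the 5 *Gzma*-positive cells of library 1. In the 26 cells of library 2, stromal transcripts included, it ran from 0 to 22.9 with a median of 5.47. The 2 libraries did not overlap for *Gzmb*, and each library 1 cell held 7 to 11 UMIs of it.

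The other effectors overlapped between libraries. *Gzma* per 10000 UMIs ran from 83.0 to 551 (median 175) in library 1 and from 5.11 to 335 (median 110) in library 2. *Ccl5* ran from 54.8 to 206 (median 160) and from 30.0 to 713 (median 209). *Prf1* ran from 7.60 to 25.5 (median 12.9) and from 0 to 28.9 (median 6.79). The library 1 to library 2 ratio of summed levels was 8.79 for *Gzmb*, 2.00 for *Gzma*, 1.72 for *Prf1* and 0.55 for *Ccl5*, so *Gzmb* moved more than the other effectors between libraries. The libraries came from experiments done on separate occasions and differ in depth, and the part of either in this difference was not tested.

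**Figure D3:**
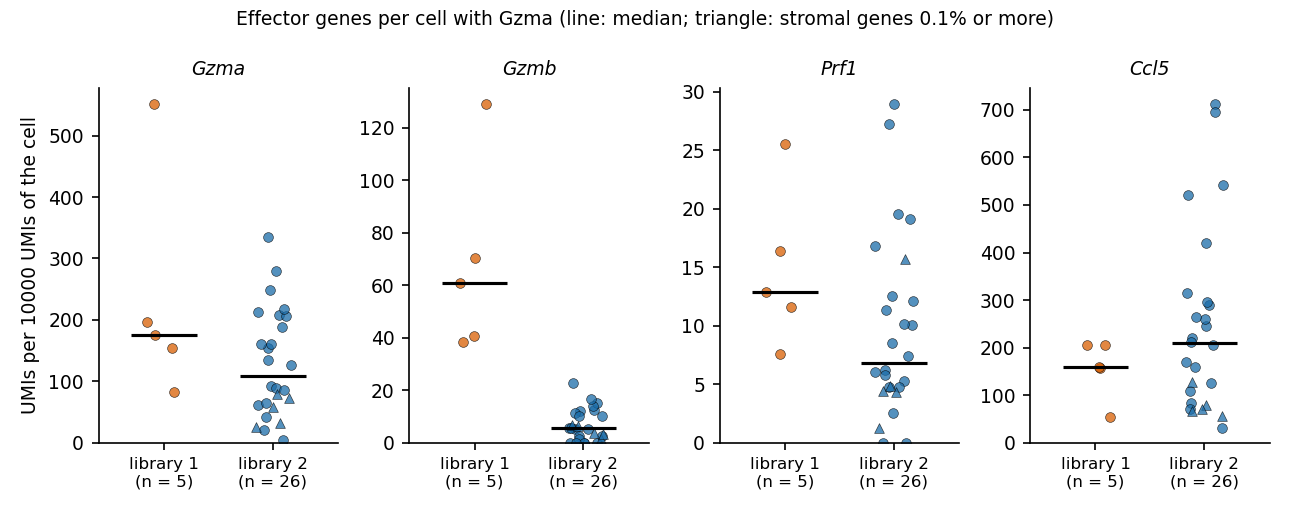
UMIs of effector genes per 10000 UMIs of the cell (y axis, linear) in each *Gzma*-positive member of library 1 (n = 5) and library 2 (n = 26), with a line at the median and triangles for members with stromal genes at 0.1% or more. The *Gzmb* points of library 1 (38.4 to 129) lie above all points of library 2 (0 to 22.9), while *Gzma*, *Prf1* and *Ccl5* overlap.

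The 17 *Klr* genes looked up on chromosome 6 lie between 128778485 and 131247362 (GRCm38), a span of 2.47 Mb. *Klrb1c*, which encodes NK1.1, the surface marker by which NK cells of this strain are stained, was at 1110 and 914 CPM. It had a UMI in 24 of 26 cells (92.3%, interval 74.9 to 99.1), in 1 of 24 *Gzma*-negative members, and in 0 of 54 T cells and 0 of 95 B cells. After every cell was thinned to 1000 UMIs, 15 of 24 cells (62.5%) still held it. *Klrk1*, the activating receptor NKG2D, was at 833 and 914 CPM with a UMI in 24 of 26 cells, and T cells were at 69.9 and 88.4 CPM. *Klrc2*, an activating NKG2 partner of CD94, was at 139 and 483 CPM and had 0 UMIs in T cells.

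Ly49 receptors, lectin-like receptors of which most bind MHC class I, were carried in differing sets. Of the 10 *Klra* genes listed, *Klra4* was at 416 and 1097 CPM in 15 cells, *Klra8* (the activating Ly49H) at 555 and 575 CPM in 12, and *Klra7* (Ly49G) at 278 and 536 CPM in 15. *Klra9* was at 694 and 340 CPM in 11 cells, *Klra3* (Ly49C) at 0 and 300 CPM in 8, and *Klra1* (Ly49A) at 0 and 105 CPM in 3. *Klra5* and *Klra6* had 1 UMI each, and *Klra2* and *Klra10* had 0. Every one of the 26 cells held at least 1 Ly49 gene. Of these cells, 7 held 1 gene, 7 held 2, 5 held 3, 5 held 4 and 2 held 5. There were 20 different sets, and no set was shared by more than 2 cells. Cells of library 1 held a median of 1 gene and those of library 2 a median of 3, beside median depths of 1566 and 3802 UMIs, so sets are lower limits at this depth. Near-identical transcripts can share reads, and within 500 bases of the 3' end 5.15% of 90-base windows of *Klra3* matched *Klra10* and 4.74% of those of *Klra9* matched *Klra8*.

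**Figure D4:**
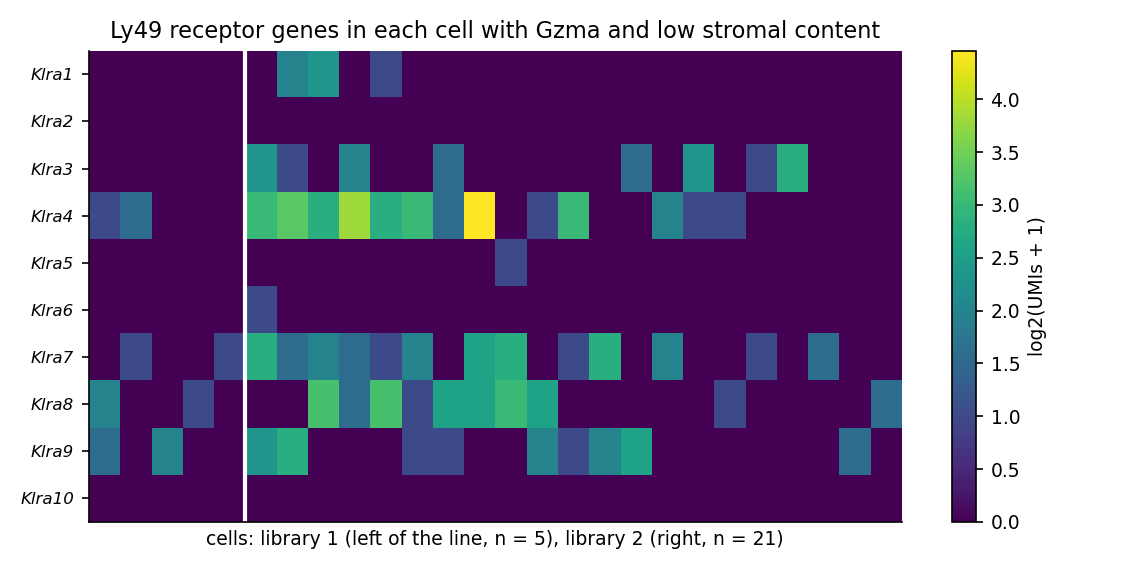
Ly49 (*Klra*) genes in the 26 *Gzma*-positive members of low stromal content, with 1 column per cell, library 1 to the left of the line and library 2 to the right, and colour for log2(UMIs + 1). Filled squares form 20 different combinations, from 1 to 5 genes per cell.

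*Fcer1g* and *Tyrobp* (DAP12), which carry the activation motifs of NK receptors, were at 5412 and 3252 CPM and at 4302 and 3069 CPM. T cells had 0 UMIs of both, at least 266-fold and 246-fold lower. *Hcst* (DAP10), the NKG2D adaptor, was at 694 and 953 CPM, close to the 594 and 540 CPM of T cells. *Il2rb*, the receptor chain for interleukins 2 and 15, was at 971 and 731 CPM against 210 and 88.4 CPM in T cells.

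*Eomes*, a T-box factor that separates NK cells from other group 1 innate lymphoid cells, was at 278 and 261 CPM in 12 of 26 cells and had 0 UMIs in T cells. *Tbx21* (T-bet), the related T-box factor, was at 0 and 65.3 CPM. *Irf8*, a transcription factor of myeloid and NK cells, was at 1388 and 758 CPM, at least 62.8-fold higher than in T cells. *Id2*, a helix-loop-helix inhibitor required by innate lymphocytes, was at 694 and 967 CPM.

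Markers of circulation and maturation were seen at low counts. *Itgam* (CD11b), an integrin of mature NK cells, was at 0 and 183 CPM in 12. *S1pr5*, the receptor by which NK cells leave tissues, was at 278 and 78.4 CPM. *Cd27*, a marker of less mature NK cells, had UMIs in 4 cells, all in library 2 (78.4 CPM), and *Cx3cr1* had 1 UMI. Cytokine genes were sparse, with *Ifng* at 278 and 235 CPM in 8 cells, *Xcl1* at 555 and 144 CPM in 6 cells and *Ccl4* at 278 and 575 CPM in 11 cells. *Tnf*, *Csf2* and *Il10* had 0 UMIs.

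The summed counts of the 31 members of low stromal content were then compared with those of T, B and stromal cells in 1 edgeR quasi-likelihood fit over both libraries, with 3525 genes tested. Of these 31 cells, 5 were *Gzma*-negative, and they held 14441 of the 21647 UMIs of the library 1 sum. Members and T, B and stromal cells were all gated on counts of the same cells, so the calls describe sums and are no independent evidence of the cell type. A second fit left out cells above 2 times the median UMIs of their group, which left 25 *Gzma*-positive members in the NK sums, and its calls against T cells are given where other genes of a list were called. That fit held no *Gzma*-negative member.

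Against T cells, 13 of 14 tested NK markers outside the rule were higher, beside 3.6% of all genes, and 9 of 9 tested T cell markers were lower, beside 2.1% of all genes. With cells of high UMIs left out the counts were 14 of 15 and 5 of 7. The DESeq2 alternative called 6 of the 14 NK markers and 6 of the 9 T cell markers. Of 11 cytotoxic granule genes tested, 6 were higher (*Prf1*, *Gzmb*, *Serpinb9*, *Serpinb6b*, *Cma1* and *Ctsw*) and none was lower, and with cells of high UMIs left out 7 of 10 were higher, with *Ctsd* added. Their median log2 fold change was 2.40, against -0.01 over all genes tested. Of these 11 granule genes DESeq2 called 4. *Ccl5* was higher by a log2 fold change of 4.33 (SE 0.39, edgeR adjusted p = 1.21e-25) and *Gzmb* by 7.17 (SE 0.77, adjusted p = 5.56e-18). When T cells with NK transcripts were admitted to the T sum, these values were 1.85 and 3.04, both still past the threshold. The DESeq2 alternative gave *Gzmb* a log2 fold change of 7.41 that was not called (adjusted p = 0.673). *Prf1* was higher by 5.05 (SE 0.78, adjusted p = 1.2e-08) and by 4.81 with those T cells admitted.

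Beside 3.6% of all genes, all 4 Ly49 genes with enough counts to be tested were higher than in T cells. Each of the 4 had 0 UMIs there. With the adjusted p of edgeR these were *Klra4* (9.93e-12), *Klra8* (1.45e-05), *Klra7* (8.09e-05) and *Klra9* (0.000268). *Klra4* and *Klra8* were at least 80.4-fold and 44.4-fold higher in the *Gzma*-positive members, while the call of *Klra9* was lost (adjusted p = 0.0915) when T cells with NK transcripts were admitted. DESeq2 did not call *Klra4*, *Klra7* and *Klra8* (adjusted p = 0.688, 0.714 and 0.703). The NKG2, NKR-P1 and related list had 5 receptors tested, beside 3.6% of all genes higher and 2.1% lower. Of these 5, *Klrk1*, *Klrb1c* and *Klrb1a* were higher and none was lower. With cells of high UMIs left out 7 were tested, of which *Cd244a*, *Klrc2* and *Klri2* were higher in addition and *Slamf6*, a receptor shared with T cells, was lower (adjusted p = 0.0171). *Klrk1* rose by 2.66 (SE 0.52, adjusted p = 1.82e-05). *Klrb1c* had an adjusted p of 2.11e-10 in edgeR and of 0.662 in DESeq2.

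Counts of signalling, cytokine receptor and cytokine genes stand beside 3.6% of all genes higher and 2.1% lower against T cells. Signalling genes split between the 2 lymphocyte types. Of 15 tested, *Fcer1g*, *Tyrobp*, *Syk* and *Lat2* were higher and *Lat*, the scaffold of T cell receptor signalling, was lower (log2 fold change -3.89, SE 0.96, adjusted p = 0.00178). The call of *Syk* was lost with cells of high UMIs left out (adjusted p = 0.0989) and with NK sums of 10 UMIs or more (0.17), and in the former *Sh2d2a* was higher in addition. Of 11 cytokine receptors tested, *Il2rb* was higher (1.86, SE 0.57, adjusted p = 0.0241), and *Il7r*, the interleukin 7 receptor of T cells and other innate lymphoid cells, was lower (-5.68, SE 0.59, adjusted p = 2.19e-19), as was *Il2ra* (adjusted p = 0.047). *Il2ra* was not called with NK sums of 10 UMIs or more (0.128) and had too few counts to be tested with cells of high UMIs left out, where *Il18rap* was higher in addition. Of 6 cytokine genes, *Ccl5*, *Ccl4*, *Xcl1* and *Ifng* were higher and *Ltb*, which encodes lymphotoxin beta, was lower (-2.81, SE 0.50, adjusted p = 1.77e-06). With cells of high UMIs left out 5 were tested, without *Xcl1* and with *Fasl* among those higher. The calls of *Il2rb* (adjusted p = 0.341) and *Ifng* (0.516) were lost with no filter on low counts, and with DESeq2 (0.177 and 0.886), and that of *Il2rb* also with no library block (0.0956).

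Transcription factors and homing genes moved in both directions, beside 3.6% of all genes higher and 2.1% lower against T cells. Of 18 factors tested, *Eomes*, *Irf8*, *Zeb2* and *Bhlhe40* were higher, and *Lef1*, *Rora* and *Bcl11b*, which act in T cells, were lower. *Lef1* was not called with NK sums of 10 UMIs or more (adjusted p = 0.0518) and not tested with cells of high UMIs left out, where *Id2* was higher in addition. *Bhlhe40* was not called with NK sums of 10 UMIs or more. Of 16 trafficking genes, *Itga4* and *Itgax* were higher, and *Cxcr6*, *Ccr7* and *S1pr1* were lower. *Cxcr6*, a receptor of tissue-resident lymphocytes, had 0 UMIs in the NK sums against 699 and 285 CPM in T cells (adjusted p = 5.21e-07). *Itgax* had too few counts to be tested with cells of high UMIs left out or with NK sums of 10 UMIs or more, and *Itga4* was not called in the latter (adjusted p = 0.109). DESeq2 called neither *Cxcr6* (adjusted p = 0.7) nor *Eomes* (0.0616), the latter being lost with no filter on low counts too (0.127).

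T cell receptor transcripts were lower but not absent. *Trbc2* fell by 3.46 on the log2 scale (SE 0.44, adjusted p = 8.27e-13) and *Trbc1* by 2.08 (SE 0.45, adjusted p = 0.000214). With cells of high UMIs left out, *Trbc2* was still called and *Trbc1* was not (-1.42, adjusted p = 0.0547). *Trdc*, of the T cell receptor delta chain, fell by 2.92.

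Among the 10 genes with the largest increases over T cells and at least 20 UMIs in each library were *Gzmb*, *Fcer1g* and *Tyrobp*, but also *H2-Aa*, *H2-Ab1*, *H2-Eb1*, *Cd74*, *Mgl2* and *Napsa*, and the interferon-induced *Ifitm2*. Class II genes belong to the 5 *Gzma*-negative cells of the sum, since the other 26 held 0 UMIs of the 3 class II chains. *Mgl2* and *Ifitm2* also had 0 UMIs in those 26 cells. *Cd74* was higher by 9.84 (SE 0.59, adjusted p = 1.51e-58), and this became 0.37 (adjusted p = 1) with cells of high UMIs left out. Mononuclear phagocyte markers went from 5 of 5 higher to 0 of 3 in the same step. The 10 genes with the largest decreases were *Cxcr6*, *Il7r*, *Ramp1*, *Trbc2*, *Trdc*, *Rgcc*, *Lmo4*, *Trbc1*, *Rpl12* and *mt-Nd2*.

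Immediate early genes, which dissociation and sorting can induce, were called higher than in T cells for 5 of 14, beside 3.6% of all genes. The 5 were *Fos*, *Fosb*, *Atf3*, *Nr4a1* and *Zfp36*. This direction turned with the same cells left out, to 0 higher and 2 lower. *Fos* was higher by 1.46 (adjusted p = 0.00422) with all members and lower at -3.25 (adjusted p = 0.00229) without those cells. In the *Gzma*-positive members *Fos* was at 0 and 235 CPM, and in the *Gzma*-negative ones at 2498 and 2899 CPM. Of 8 heat shock genes tested against T cells, edgeR called 0 and DESeq2 0, with 2 at an unadjusted p under 0.05, and of 7 MHC class I genes these counts were 0, 0 and 0.

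Against B cells the killing genes were again higher. Of 11 cytotoxic granule genes tested, 7 were higher, beside 5.08% of all genes, and all 4 tested Ly49 genes were higher. DESeq2 called 5 of the 11 granule genes and 1 of the 4 Ly49 genes. *Prf1* and *Klrb1c* had 0 UMIs in B cells, at least 92.1-fold and 90.9-fold below the *Gzma*-positive members. *Fcer1g* was higher by 7.15 (SE 0.51). Among lower genes, beside 3.89% of all genes, 8 of 8 tested B cell markers were called, and DESeq2 called 5 of the 8. B cells were gated on *Cd79a*, *Cd79b* and *Ms4a1*, so the calls of *Cd79b* and *Ms4a1* among the 8 are favoured by the gate itself. *Klf2*, a factor of lymphocyte quiescence and circulation, fell by 1.89 (SE 0.36, adjusted p = 6.55e-06), and *Ltb* by 2.94 (SE 0.49, adjusted p = 9.63e-08). The call of *Klf2* was lost with DESeq2 (adjusted p = 0.253) and with no library block (0.101).

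Because all cells were sorted for retinoid fluorescence, the retinoid genes were read in the members. *Lrat*, which esterifies retinol for storage, *Rbp4*, the secreted retinol carrier, and *Aldh1a1*, which makes retinoic acid, had 0 UMIs in the 26 *Gzma*-positive members of low stromal content. Stromal cells held *Lrat* at 317 and 141 CPM and *Aldh1a1* at 712 and 1651 CPM. Stromal cells were thus at least 36.3-fold higher for *Aldh1a1*, 5.79-fold for *Lrat* and 3.94-fold for *Rbp4*. Of 21 retinoid genes listed, 3 had UMIs in these members, namely *Dhrs3*, a retinal reductase, with 3, and the nuclear receptors *Rarg* and *Rxrb* with 4 each. For *Dhrs3* the pooled stromal to NK ratio was 2.29 with a counting interval of 0.783 to 11.1, so no difference in these 26 cells was detectable at this depth. The stromal limit itself favours low counts of fibroblast transcripts in these 26 cells. The 5 *Gzma*-positive members at or above the limit held 101 UMIs of the 21 genes, against 11 in the 26 cells.

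Genes of lipid uptake and storage were as sparse below that limit. *Plin2*, a lipid droplet coat protein, *Lrp1* and *Vldlr*, lipoprotein receptors, and *Lpl*, lipoprotein lipase, had 0 UMIs in the *Gzma*-positive members of low stromal content. Stromal cells were at least 20.8-fold higher for *Lrp1*, 4.93-fold for *Plin2* and 3.14-fold for *Vldlr*. *Lipa*, the lysosomal acid lipase, had 4 UMIs, and the stromal ratio was 2.84 (1.11 to 10.4).

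In the edgeR fit against stromal cells, 5 of 6 retinoid genes and 6 of 6 lipid genes tested were lower, beside 27.9% of all genes. With cells of high UMIs left out the counts were 3 of 4 and 5 of 5, and with DESeq2 1 of 6 and 3 of 6. The NK sums lay under the 0.1% limit on stromal genes and the stromal cells at or above it. That limit itself favours low counts of fibroblast transcripts in the NK sums. The calls of *Lrat* and *Rbp4*, each with 0 UMIs in the NK sums, were among those that DESeq2 did not make (adjusted p = 0.352 and 0.395). *Aldh1a1* fell by 7.95 (SE 0.73, adjusted p = 1.19e-25) and *Lrp1* by 5.88 (SE 0.66, adjusted p = 9.65e-18). Against T cells and against B cells, edgeR and DESeq2 each called 0 of 6 retinoid genes, with 1 of 6 at an unadjusted p under 0.05 in either comparison. Retinoid transcripts did occur in the other members. *Lrat* had 41 UMIs in 9 *Gzma*-negative members, and the 5 *Gzma*-positive members with stromal transcripts held 2 UMIs of *Lrat* and 58 of *Aldh1a1*. These counts moved with the stromal transcripts of the same barcodes, and the part of the latter in them was not tested. Transcript levels do not measure the retinoid in a cell.

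**Figure D5:**
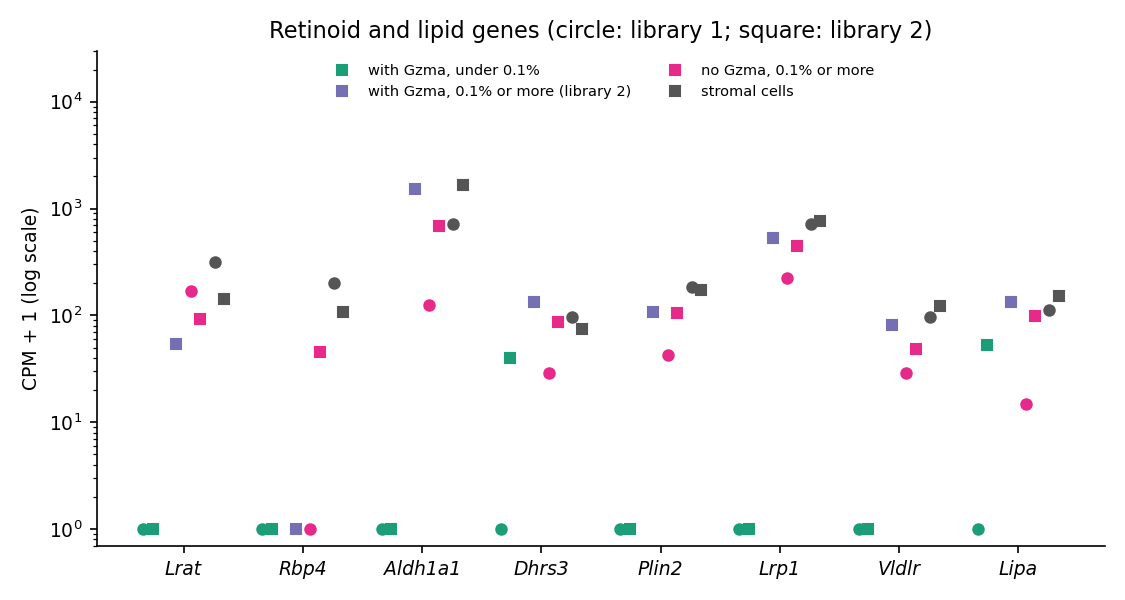
Level in CPM plus 1 (log scale) of retinoid and lipid genes in *Gzma*-positive members below and above the stromal limit of 0.1% (the latter in library 2), in *Gzma*-negative members above it and in stromal cells, with a circle for library 1 and a square for library 2. The *Gzma*-positive members of low stromal content lie at 0 UMIs for *Lrat*, *Rbp4* and *Aldh1a1*, while stromal cells reach 317 CPM for *Lrat* and 1651 CPM for *Aldh1a1*.

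MHC class I genes were higher than in stromal cells for 3 of 7 tested (*H2-K1*, *H2-D1* and *H2-Q7*), beside 15.9% of all genes. *H2-K1*, a classical class I heavy chain, was at 2498 and 2299 CPM in the *Gzma*-positive members and 295 and 241 CPM in stromal cells. *H2-D1*, the other classical chain of this strain, was at 3747 and 2886 CPM against 711 and 509 CPM. The edgeR fit used the NK sums, which also held 5 *Gzma*-negative cells, so its fold changes belong to those sums. For *H2-K1* the fit gave 2.30 on the log2 scale (SE 0.33, adjusted p = 6.2e-11). For *H2-D1* it gave 1.73 (SE 0.32, adjusted p = 5.7e-07). That call was lost with only the 2 groups in the fit (adjusted p = 0.0677). Immediate early genes were lower than in stromal cells for 13 of 14, beside 27.9% of all genes. With cells of high UMIs left out, 14 of 14 were lower.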

How the data were processed

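Retinoid-containing lung cells were profiled in 2 libraries made with a 3' single-cell kit (version v3.1 chemistry). The deposited values are raw UMI counts per gene and cell for 32285 genes, made by the authors with Cell Ranger 5.0.1 against mm10, per the submitters' processing notes. No other samples' columns were present.

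Cells under 200 genes or above 10% mitochondrial UMIs were removed. The members and all gene lists were chosen with earlier results of these data known. T cells had at least 2 UMIs of *Cd3e*, *Cd3d* and *Cd3g* and fewer than 5 of the NK genes. B cells had at least 3 UMIs of *Cd79a*, *Cd79b* and *Ms4a1*, with *Cd79a* among them, and no *Cd3* UMI. T and B cells had the 6 stromal genes under 0.1% of UMIs. Stromal cells had these genes at 0.1% of UMIs or more and no UMI of *Ptprc* or the NK genes. Genes named beyond the lists were the 10 with the largest change in each direction against T cells, with at least 20 UMIs in each library.

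Counts were summed per cell group and library and tested with edgeR 4.0.16 (R 4.3.3; TMM, filter on low counts, quasi-likelihood test, library as block) and Benjamini-Hochberg adjustment at 0.05. The scripts were tested on simulated data. DESeq2 1.42.0 was an alternative. CPM were computed per 1000000 UMIs of a group. Intervals (95%) and the limit of 3 UMIs cover counting error only. Promoters came from RefSeq (GRCm38.p6, 20 of 23 genes found) and positions from GENCODE (GRCm38). No protein sequences were used here. Some listed genes are not reported here.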

Additional observations from a re-analysis of the deposited data

How the results depend on the processing

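Against T cells 201 genes were called, and the count was 111 with DESeq2, 113 with no filter on low counts, 133 with no library block, 1048 with all members of the rule, and 98 with only the 2 groups in the fit. Against B cells 316 genes were called, and the count was 198, 172, 192, 1234 and 194 under the same alternatives. Against stromal cells 1543 were called, and 985 with only the 2 groups. The cause of these shifts was not tested.

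*Fos* against T cells turned to -3.25 with cells of high UMIs left out and ran from -2.87 to 2.51 when each library was left out in turn, *Fosb* turned to -12.78 and *Cd74* against stromal cells to -1.69 with cells of high UMIs left out. Leaving out cells of high UMIs removed all 5 *Gzma*-negative cells of the NK sums. Over the genes and shares recomputed, 388 values were the same, 60 moved, 42 lost their call and 4 turned.

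The share of members was 0.280% of cells, 0.392% with a sum of 3 UMIs, 0.178% with 10, 0.148% after thinning to 2000 UMIs, and 0.125% to 0.431% when each library was left out in turn. The stromal share of members was 43.6%, and 10.9% with the limit at 0.5% of UMIs. Cell groups of the same library were paired by the library block of the fit, and the counts of 133 and 192 are those without this pairing. With 5 *Gzma*-positive cells in library 1, where 1 UMI is 139 CPM, low genes cannot be compared between libraries.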
